A study of Rattus norvegicus with 6 samples.

Results

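The genes of mitosis and its spindle checkpoint were examined in RUCA-I cells with and without miR-203. RUCA-I is an epithelial cell line from a rat endometrial adenocarcinoma, of the Lewis strain per the labels. The 44 genes form a list of mitotic regulators and machinery taken by symbol from the authors' gene table, using the longest tested locus where a symbol had several. Of these, 41 had a tested row and 3 (Ccnb2, Ube2c and Kif20a) had none under their symbol. The 2 groups were 3 miR-203 KO samples, genotype miR-203 -/- in the labels and each an independently made line, and 3 WT samples, described as batches of the parental cells. All cells were untreated and near confluence, and total RNA was sequenced from stranded libraries. The table holds 1 FPKM value (fragments counted per length of message and per amount sequenced) for each group, so no SD stands behind a value and read depth per sample is unknown. The only test against the spread between samples is the authors' own Cuffdiff test, and whether it reflects the lost microRNA or the separate lines cannot be told apart.

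Mitosis is driven by cyclin-dependent kinase 1 bound to cyclins A and B, with polo and Aurora kinases acting on centrosomes, kinetochores and the spindle. The spindle checkpoint holds back the anaphase-promoting complex (APC/C), a ubiquitin ligase, until every chromosome is attached, after which securin and cyclin B are destroyed and the sister chromatids part. Most of these genes are transcribed in G2 phase and mitosis through a shared promoter element, the cell cycle homology region, often beside CCAAT boxes bound by the factor NF-Y. In the endometrium their messages mark the proliferating epithelium.

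The microRNA removed from the KO lines is shown first, since its seed, the stretch that pairs with targets, defines which messages it can reach. Both mature arms of rat miR-203 are given from RefSeq (GRCr8, chromosome 6, plus strand), with the seed, bases 2 to 8, in capitals.
rno-miR-203a-3p: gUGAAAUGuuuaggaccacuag
rno-miR-203a-5p: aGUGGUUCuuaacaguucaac

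The promoters show what the mitotic genes have in common besides their role. RefSeq promoter windows (GRCr8, 250 bases before to 50 after each annotated start) were found for 38 of the 44 genes, as 39 windows. The letters TTTGAA or TTCGAA, both forms of the cell cycle homology region, stood on either strand in 30 of 39 windows (76.9%), against 18.5% of 21851 protein-coding windows. TTTGAA alone was in 71.8% of the mitotic windows and 17.1% of all, and TTCGAA in 10.3% and 1.69%. CCAAT was in 28 of 39 windows (71.8%), against 38.0% of all protein-coding windows. Both kinds of motif stood together in 24 of 39 windows (61.5%), against 7.60% of all. Of the 38 matches to TTTGAA or TTCGAA, 26 began within the 120 bases before the start. A TTTGAA match shared a base with a CCAAT match in Cdca8 and in Mki67, and no other matches overlapped. A match is only a run of letters and shows no binding.

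The 120 bases up to the start are printed for 6 of the genes, 5′ to 3′ on the gene's strand, with the motif letters in capitals on whichever strand they match. Cdk1, Cdc20, Prc1 and Pttg1 are shown as highly expressed members with the paired layout, and Cdc25b and Top2a because they had the highest and the lowest log2((KO + 1)/(WT + 1)), in FPKM, among genes with a window, Nusap1 left aside for the reason given below. Their positions on GRCr8 are chr20:19265173-19265292 (plus) for Cdk1, chr5:137255800-137255919 (minus) for Cdc20, chr1:143659361-143659480 (plus) for Prc1, chr10:28406327-28406446 (minus) for Pttg1, chr3:138860053-138860172 (plus) for Cdc25b and chr10:84473094-84473213 (minus) for Top2a.
Cdk1: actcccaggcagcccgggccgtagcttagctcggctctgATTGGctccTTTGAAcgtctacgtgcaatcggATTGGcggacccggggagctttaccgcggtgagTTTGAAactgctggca
Cdc20: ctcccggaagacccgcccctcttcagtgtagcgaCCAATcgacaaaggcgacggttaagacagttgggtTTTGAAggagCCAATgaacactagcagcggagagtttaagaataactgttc
Prc1: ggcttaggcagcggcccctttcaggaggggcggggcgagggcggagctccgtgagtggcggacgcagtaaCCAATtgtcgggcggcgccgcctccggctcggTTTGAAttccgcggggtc
Pttg1: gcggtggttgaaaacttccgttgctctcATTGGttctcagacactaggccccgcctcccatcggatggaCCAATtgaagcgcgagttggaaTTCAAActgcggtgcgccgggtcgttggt
Cdc25b: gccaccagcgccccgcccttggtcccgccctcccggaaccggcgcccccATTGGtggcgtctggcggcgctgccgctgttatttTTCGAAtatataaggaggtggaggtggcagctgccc
Top2a: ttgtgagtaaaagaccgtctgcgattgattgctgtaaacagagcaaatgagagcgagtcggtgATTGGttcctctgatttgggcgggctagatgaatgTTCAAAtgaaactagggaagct

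**Figure D1:**
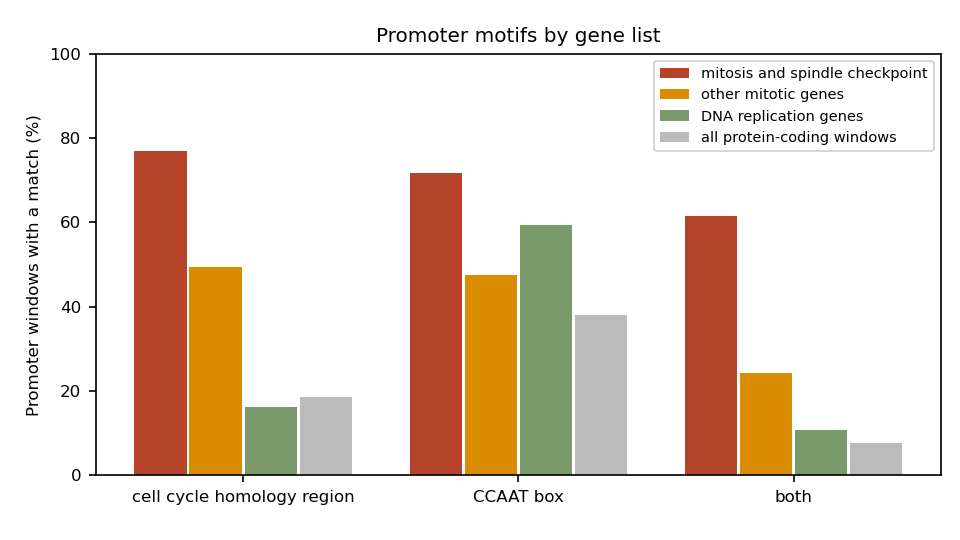
Share of promoter windows, in percent, that hold TTTGAA or TTCGAA (cell cycle homology region), CCAAT, or both, for the mitosis and spindle checkpoint genes (39 windows), other mitotic genes (103), DNA replication genes (37) and all protein-coding windows (21851). The first bar of each group is the highest, at 76.9%, 71.8% and 61.5%.

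DNA replication genes, which are transcribed earlier in the cycle, served as the nearest other programme. TTTGAA or TTCGAA was found in 6 of their 37 windows (16.2%), against 18.5% of all protein-coding windows, and CCAAT in 22 of 37 (59.5%). By form, TTTGAA was in 8.11% of the replication windows and 17.1% of all, and TTCGAA in 8.11% and 1.69%. Other mitotic genes, described further below, held TTTGAA or TTCGAA in 51 of 103 windows (49.5%). The shares are descriptions without a test.

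The mitotic genes were well expressed in both groups. Their median level was 32.9 FPKM in KO and 33.2 FPKM in WT cells, and 39 of 41 lay above 10 FPKM in both. Among rows averaging 1 FPKM or more, the median row had a mean of 8.62 FPKM, which 39 of the 41 exceeded. Bulk values cannot separate the share of cells in mitosis from the amount of RNA in each such cell. Of 12 epithelial markers 11 had a tested row, all with a mean of at least 13.8 FPKM, Epcam the highest, and Esr1, the estrogen receptor, had 8.32 FPKM in KO and 7.58 FPKM in WT cells, while Krt19 and Pgr had no tested row. Of 8 fibroblast markers only Col1a1 had a row (1.17 FPKM in KO and 1.43 FPKM in WT cells). Of 8 leukocyte markers 3 had a row, summing to 30.3 FPKM in KO and 39.7 FPKM in WT cells, while Ptprc had none. Most of that sum was Cd79a, with 23.9 FPKM in KO and 31.7 FPKM in WT cells, which was not called. Of these markers Csf1r was called lower, with 0.2004 FPKM in KO and 0.791 FPKM in WT cells (q = 0.0187, authors' deposited table). Of 5 muscle markers 2 had a row, summing to 4.32 FPKM in KO and 2.25 FPKM in WT cells, and no endothelial or nerve marker had one. Whether these marker rows reflect other cell types, and whether such cells had a part in any result, was not tested.

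None of the 41 genes differed between KO and WT cells by the authors' test. By Cuffdiff's q under 0.05, as the authors' deposited table gives it, 0 of 41 were called, against 1.05% of the 26459 tested rows (0.491% higher in KO cells). At q under 0.10 in the authors' deposited table the count was also 0, against 1.31% of those rows. At an unadjusted p under 0.05 in the authors' deposited table there were 2, Tpx2 and Cdc25b. Both had a mean of 10 to 100 FPKM, a range that holds 39 of the 41, and 2 of 39 is 5.13%, against 7.45% of the 7019 tested rows in that range. The lowest q was 0.551, for Tpx2, in the authors' deposited table. A p that misses the threshold does not show equal levels, and the table gives no interval. As a guide to what could be called, 1.51% of the 7019 rows in that range were called, with a smallest called fold of 1.301 and a median called fold of 1.51 in the authors' deposited table.

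The differences were small for nearly all members. By the fold in the authors' deposited table, 30 of 41 lay within 1.1-fold and 39 within 1.2-fold, the exceptions being Tpx2 and Ect2. Nusap1 is counted in the 30 and the 39 by that fold (1.04), which its listed FPKM values contradict, as described below. Of the 39 members at 10 to 100 FPKM, 2.56% reached 1.2-fold in the authors' deposited table, against 14.1% of the 7019 rows in that range. All tested rows were counted there, unnamed loci and several rows of a gene included, whereas each member gave a single named row. These shares, like those above, thus come from sets picked differently. Ratios are given as log2((KO + 1)/(WT + 1)), where adding 1 FPKM understates changes of low genes. Over the members this log2 ratio had a median of 0.03 and quartiles of −0.02 and 0.13. Over all 18090 rows averaging 1 FPKM or more it was 0.00, with quartiles of −0.11 and 0.13. On this scale 25 of 41 members (61.0%) were higher and 16 lower in KO cells. Of those rows 51.1% were higher, and of the 7019 rows at 10 to 100 FPKM 46.6%. The 16 include Nusap1 and the 25 include Ect2, whose values are uncertain, as described below. With both groups scaled to the same FPKM sum 7 of 41 were higher, as that scaling moves the median of all rows by −0.14.

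**Figure D2:**
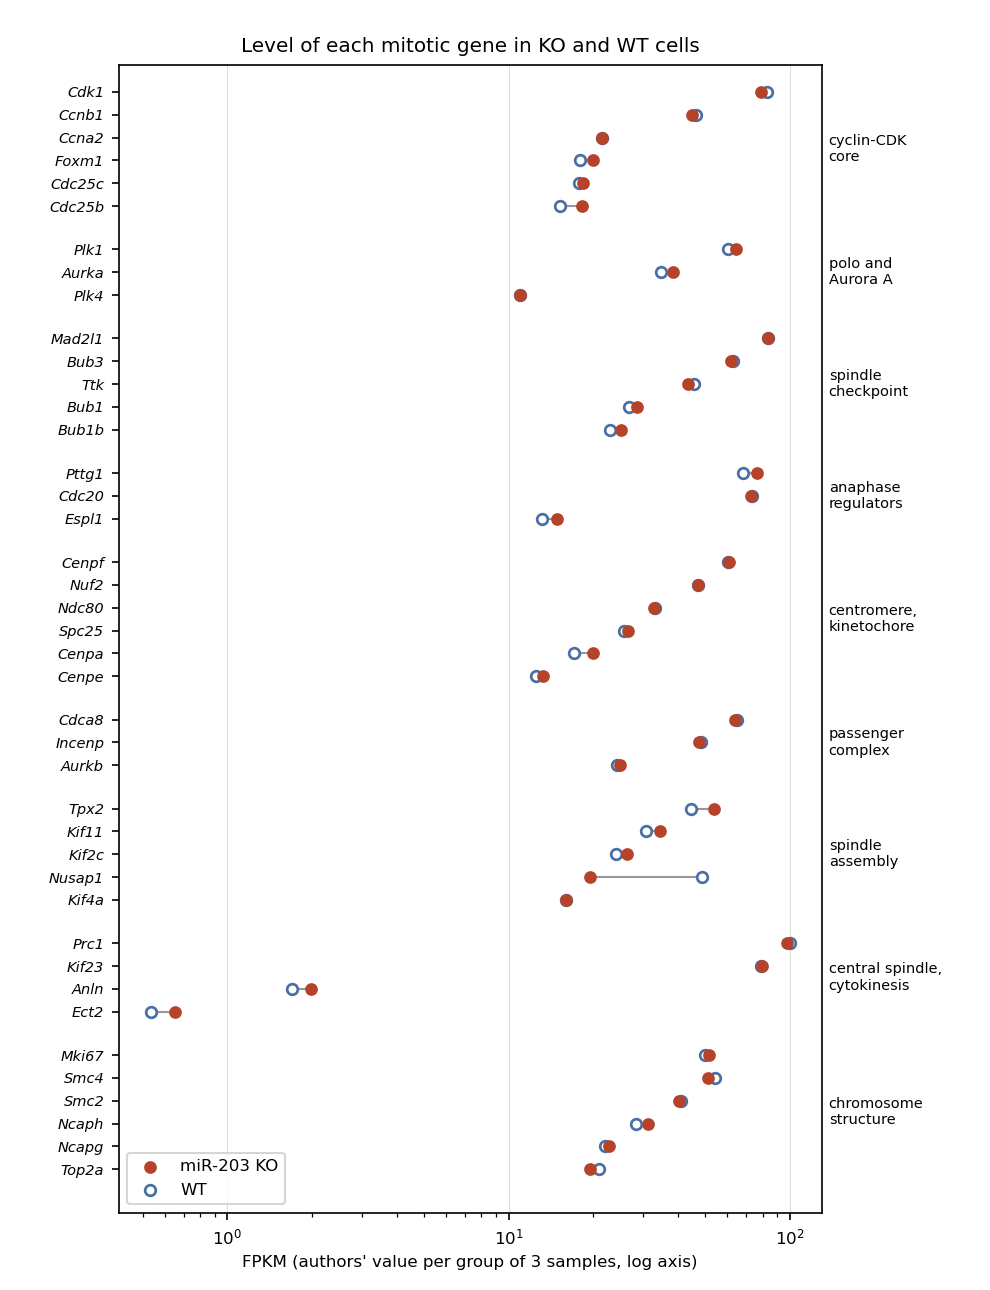
FPKM of the 41 measured genes on a log axis, 1 value per group as deposited, filled points for miR-203 KO and open points for WT cells, sorted by KO level within each role. Points of a gene lie close together except for Nusap1 (19.4 FPKM in KO and 48.7 FPKM in WT cells).

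In the core that starts mitosis the listed KO and WT levels of each gene lay within 1.2-fold of each other. Cdk1, the kinase itself (rn6 chromosome 20, 20576382 to 20592567 as the authors list it), had 78.8 FPKM in KO and 83.1 FPKM in WT cells (q = 0.997, authors' deposited table). Its partner Ccnb1, cyclin B1, had 45.05 FPKM in KO and 46.6 FPKM in WT cells, and Ccna2, cyclin A2, had 21.5 FPKM in both. Cdc25c, a phosphatase that switches Cdk1 on, had 18.5 FPKM in KO and 17.8 FPKM in WT cells. Foxm1, the transcription factor that activates many G2 genes, had 19.99 FPKM in KO and 17.95 FPKM in WT cells. In this group Cdc25b, the phosphatase that acts earliest on Cdk1, was the furthest apart, with 18.3 FPKM in KO and 15.3 FPKM in WT cells, and is taken up below with its chromosome. None of the 6 passed. The log2 ratio was above 0 for 4 of 6 as deposited, and with FPKM sums set equal for Cdc25b alone.

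Polo and Aurora A kinases build the centrosomes and spindle poles. Plk1, the main mitotic polo kinase, had 64.5 FPKM in KO and 60.1 FPKM in WT cells. Aurka, Aurora A, had 38.5 FPKM in KO and 34.8 FPKM in WT cells. Plk4, which starts centriole duplication, shares its row with the neighbouring gene Mfsd8, so its 11.01 FPKM in KO and 10.98 FPKM in WT cells belong to both. All 3 had a log2 ratio of at least 0.00 as deposited, none passed, and with FPKM sums set equal none was above 0.

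Among checkpoint genes, none of which passed, Mad2l1, the inhibitor that binds Cdc20 at unattached kinetochores, had the highest level. It stood at 83.6 FPKM in KO and 83.97 FPKM in WT cells. Bub3, which carries Bub1 and Bub1b to the kinetochore, had 61.9 FPKM in KO and 62.6 FPKM in WT cells, and Ttk, the Mps1 kinase that starts the signal, had 43.5 FPKM in KO and 45.5 FPKM in WT cells. The kinase Bub1 had 28.6 FPKM in KO and 26.7 FPKM in WT cells. Bub1b, or BubR1, part of the complex that inhibits the APC/C, had 25.04 FPKM in KO and 22.99 FPKM in WT cells. Summed over the 5 genes, the level was 243 FPKM in KO and 242 FPKM in WT cells.

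Next come the checkpoint's target and the pair of proteins whose release it controls. Cdc20, the APC/C activator, had 72.9 FPKM in KO and 73.1 FPKM in WT cells (q = 0.997, authors' deposited table). Pttg1, securin, which holds separase inactive, had 76.4 FPKM in KO and 68.3 FPKM in WT cells. Espl1, separase, the protease that cuts cohesin, had 14.8 FPKM in KO and 13.2 FPKM in WT cells. Pttg1 and Espl1 were each 1.12-fold by the authors' deposited table, and neither passed.

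Centromere and kinetochore genes spanned a similar range of levels in both groups, and none passed. Cenpf, a large kinetochore protein of late G2, had 60.6 FPKM in KO and 60.1 FPKM in WT cells. Nuf2, Ndc80 and Spc25, subunits of the microtubule-binding Ndc80 complex, had 46.98, 32.9 and 26.5 FPKM in KO cells and 47.1, 33.2 and 25.8 FPKM in WT cells. Cenpa, the histone H3 variant that marks centromeres, had 19.97 FPKM in KO and 17.1 FPKM in WT cells, a fold of 1.17 (q = 0.997, authors' deposited table). Cenpe, a kinesin of the kinetochore, had 13.2 FPKM in KO and 12.5 FPKM in WT cells.

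The chromosomal passenger complex corrects wrong attachments. Cdca8, or borealin, had 63.8 FPKM in KO and 65.01 FPKM in WT cells, and the scaffold Incenp had 47.4 FPKM in KO and 48.4 FPKM in WT cells. Aurkb, the Aurora B kinase of the complex, had 24.9 FPKM in KO and 24.4 FPKM in WT cells. The 3 lay between 0.980-fold and 1.02-fold of WT, and none passed.

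Spindle assembly held the member furthest apart by the authors' fold among those above 10 FPKM, Tpx2, and the 1 member whose deposited values contradict each other. Tpx2, which activates Aurora A on microtubules, had 53.6 FPKM in KO and 44.6 FPKM in WT cells. Kif11, the motor that pushes spindle poles apart, had 34.4 FPKM in KO and 30.7 FPKM in WT cells, Kif2c, which depolymerises microtubules, had 26.3 FPKM in KO and 24.004 FPKM in WT cells, and Kif4a, a motor on chromosome arms, had 15.96 FPKM in KO and 15.98 FPKM in WT cells. Nusap1, which bundles spindle microtubules, is listed with 19.4 FPKM in KO and 48.7 FPKM in WT cells, a log2 ratio of −1.28, yet the log2 fold in the authors' deposited table for that same row is 0.05 (q = 0.997). Such a mismatch of over 0.01 occurs in 425 of 26420 tested rows above 0 in both groups, so the direction for Nusap1 cannot be read from this table.

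For the central spindle and cytokinesis, Prc1, which crosslinks midzone microtubules, had the highest level of all members, 97.9 FPKM in KO and 99.97 FPKM in WT cells. Kif23, a motor of the centralspindlin complex, had 79.4 FPKM in KO and 78.96 FPKM in WT cells. Ect2, which activates RhoA for furrowing, had 0.652 FPKM in KO and 0.534 FPKM in WT cells at its longest locus, while a shorter row of Ect2 (rn6 chromosome 2, 112800884 to 112806274) had 33.9 FPKM in KO and 35.6 FPKM in WT cells. Anln, or anillin, a scaffold of the furrow, was split over 10 tested rows, and its longest had 1.99 FPKM in KO and 1.70 FPKM in WT cells. For both genes the value at the longest locus is therefore uncertain.

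Genes of chromosome structure and Mki67 closed the list. Smc4 and Smc2, the paired core of condensin, had 50.99 and 40.5 FPKM in KO cells and 54.001 and 40.96 FPKM in WT cells. The condensin I subunits Ncaph and Ncapg had 31.4 and 22.8 FPKM in KO cells and 28.4 and 21.996 FPKM in WT cells. Mki67, the Ki-67 protein of dividing cells that coats mitotic chromosomes, had 51.6 FPKM in KO and 49.9 FPKM in WT cells (q = 0.997, authors' deposited table). Top2a, the topoisomerase that untangles sister DNA, had 19.5 FPKM in KO and 20.96 FPKM in WT cells, the lowest fold by the authors' deposited table (0.932).

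**Figure D3:**
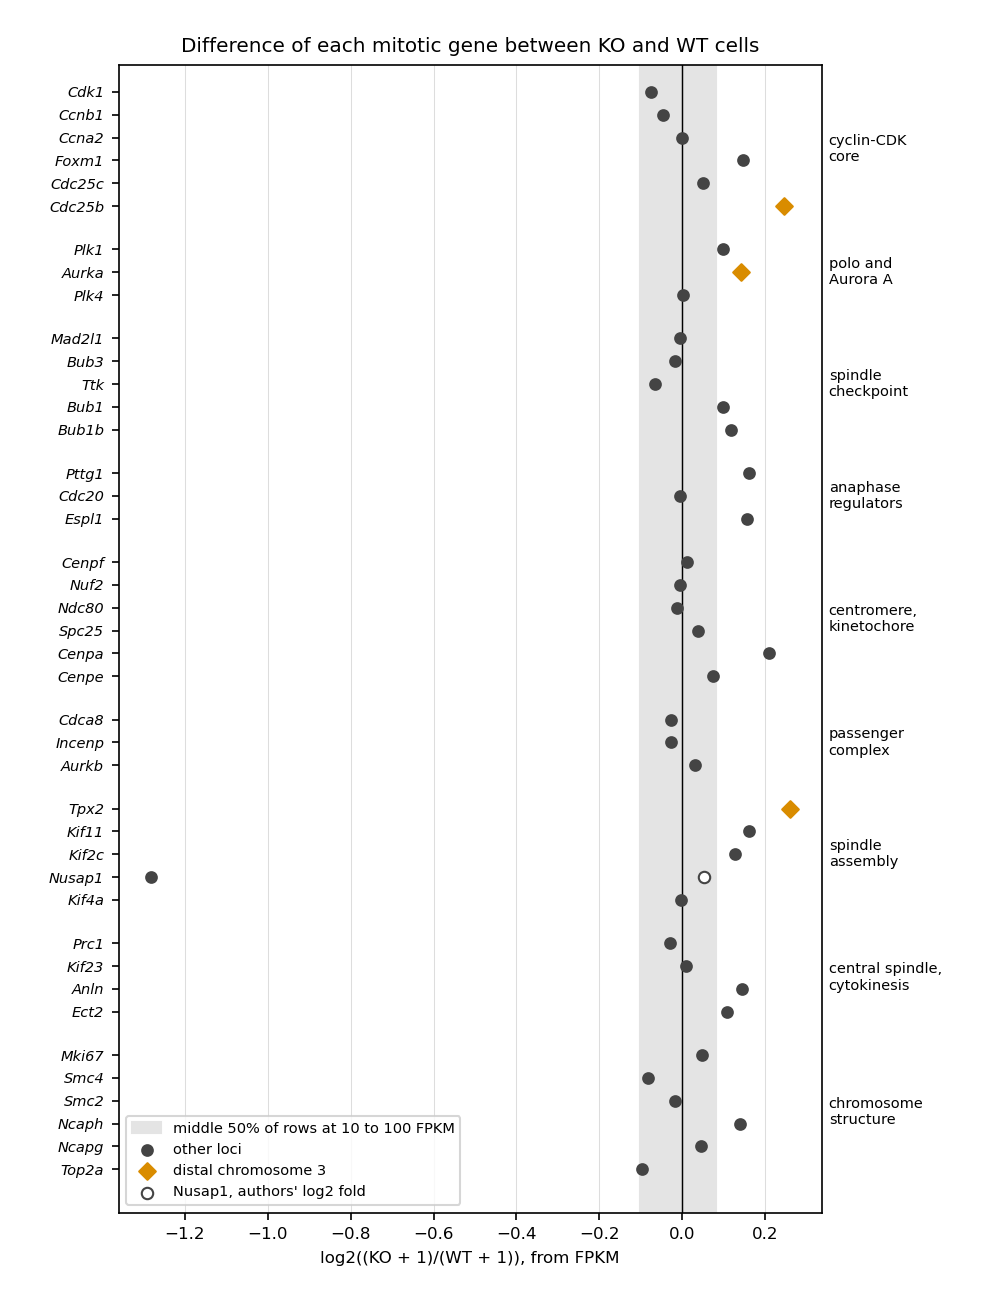
log2((KO + 1)/(WT + 1)) of the 41 genes by role, with diamonds for loci on distal chromosome 3, and the grey band from −0.10 to 0.08 spanning the quartiles of all rows at 10 to 100 FPKM. The open point is the authors' log2 fold of Nusap1 (0.05), whose listed FPKM values give −1.28; 25 of the 41 filled symbols lie above 0, and 7 of 41 would with both groups scaled to the same FPKM sum.

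The order of the levels was nearly the same in both groups, as 38 of 41 genes shifted by at most 2 places. From Prc1 down to Plk4, whose row is shared with Mfsd8, the members above 10 FPKM spanned 8.89-fold in KO and 9.11-fold in WT cells. That is far more than any gene differed between groups by the authors' fold. FPKM is per length, so levels can be set side by side, though no spread is at hand to tell neighbours in the order apart.

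The 3 genes on distal chromosome 3 (rn6, from about 122.8 Mb on) are set apart, as rows of that stretch lay higher in KO cells as a whole. The stretch begins at the start of a row in these same data. The contrast with other rows therefore describes the stretch and is no independent support for it. Over its 565 rows averaging 1 FPKM or more the median log2 ratio was 0.15 and 78.4% were higher in KO cells, against −0.01 and 48.7% of 788 rows on the rest of chromosome 3 and 0.00 and 50.2% of 16737 rows elsewhere. All 3 mitotic genes there lay above 0 as deposited; with FPKM sums set equal Aurka lay at −0.018. Tpx2 (148328036 to 148371751) was 1.202-fold (q = 0.551, authors' deposited table). Cdc25b (123731556 to 123741896) was 1.197-fold (q = 0.760, authors' deposited table). Aurka (170361154 to 170392237) was 1.106-fold (q = 0.997, authors' deposited table). Their median log2 ratio was 0.25. With both groups scaled to the same FPKM sum it was 0.090, which is 0.23 relative to all rows, whose median was then −0.14. Of the 565 rows, 14.9% reached an unadjusted p under 0.05 in the authors' deposited table.

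Without them, the other 38 genes had a median log2 ratio of 0.01 (−0.15 with FPKM sums set equal, and −0.01 relative to all rows). As deposited, 22 were higher and 16 lower in KO cells, and none reached an unadjusted p under 0.05 in the authors' deposited table. Both unadjusted p-values under 0.05 thus belong to genes of the distal stretch. The nearest members before its start were Bub1, at −2.43 Mb with a log2 ratio of 0.10, and Ncaph, at −3.22 Mb with 0.14, and the nearest after it was Cdc25b, at 0.928 Mb with 0.25. Further back stood Nusap1, Bub1b (−12.4 Mb, 0.12) and Spc25 (−67.4 Mb, 0.04). Over the 182 rows from position 110 Mb to the start, a window chosen after the values were seen, the median log2 ratio was 0.01 and 53.3% were higher in KO cells.

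**Figure D4:**
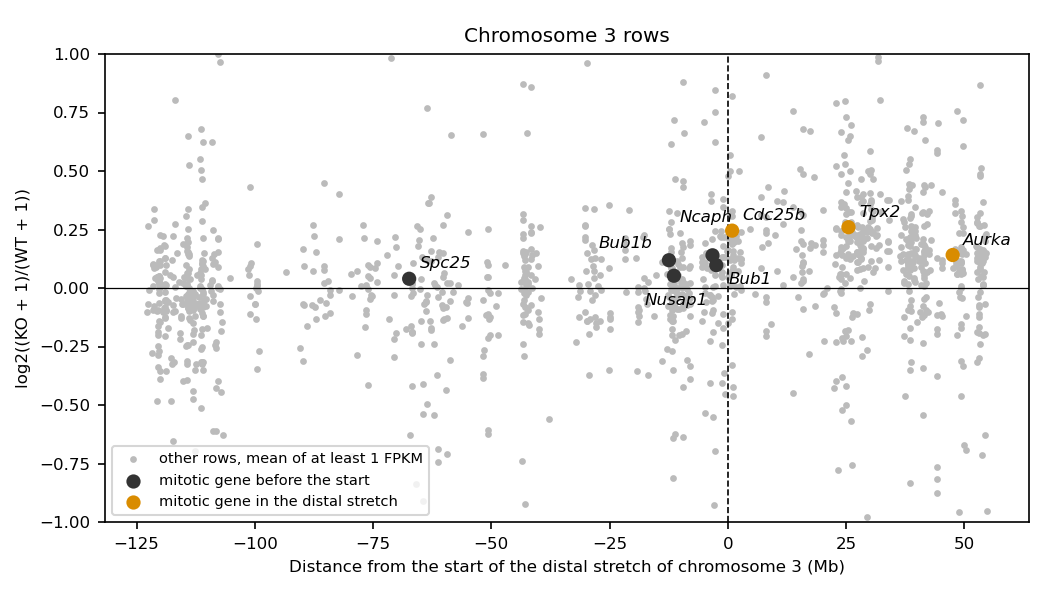
log2((KO + 1)/(WT + 1)) of chromosome 3 rows averaging 1 FPKM or more against distance from the start of the distal stretch in Mb, with the 8 mitotic genes named; Nusap1 is drawn at the authors' log2 fold, and 28 of 1353 rows beyond ±1 are not drawn. Cdc25b, Tpx2 and Aurka lie at 0.25, 0.26 and 0.14, within the raised stretch right of the dashed line.

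By promoter, the 29 measured genes with TTTGAA or TTCGAA had a median log2 ratio of 0.00, with 15 higher in KO cells, and the 7 without had 0.13, with 6 higher. The 4 genes with none of the 3 motifs, Aurka, Bub1, Kif2c and Ncaph, lay between 0.10 and 0.14; 3 of these are on chromosome 3. This grouping was made after the values were seen and has no test. With both groups scaled to the same FPKM sum, 5 of the 29 and 1 of the 7 were higher in KO cells, with medians of −0.15 and −0.030, and the 4 genes without a motif all lay below 0, between −0.060 and −0.018.

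Other genes of mitosis were taken from 8 lists of 121 genes in all, of which 112 had a tested row. None was called at q under 0.05 in the authors' deposited table, against 1.05% of the 26459 tested rows. There, 3 had an unadjusted p under 0.05, namely Rbl1, Anapc1 and Cit. Of the 7019 rows at 10 to 100 FPKM, a range that does not hold all 112, 7.45% did. The median log2 ratio of the 112 genes was 0.02, with 66 higher and 46 lower in KO cells. With both groups scaled to the same FPKM sum the median was −0.14, as was that of all rows, with 17 genes higher and 95 lower. In 6 of the 112 the listed FPKM ratio and the log2 fold in the authors' deposited table differed by over 0.01, most in Mau2, Kif2a and Kif14. For each list the 2 highest and 2 lowest ratios among genes of at least 1 FPKM are named here.

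Subunits and inhibitors of the APC/C had a log2 ratio above 0 in 15 of 17 as deposited, with a median of 0.07; with FPKM sums set equal it was above 0 in 2 of 17, with a median of −0.084. Anapc11 (0.30) and Anapc1 (0.22) had the highest ratios, and Cdc27 (−0.12) and Anapc10 (−0.03) the lowest. Anapc11 was low in level, with 2.22 FPKM in KO and 1.62 FPKM in WT cells. Anapc1, the largest scaffold subunit, had 33.5 FPKM in KO and 28.6 FPKM in WT cells, and none of the 17 passed in the authors' deposited table. Regulators of the MuvB complex and B-Myb, which act on the cell cycle homology region, had a median of 0.04 over 9 genes (−0.11 with FPKM sums set equal). Rbl1 (0.24), which encodes p107, and Mybl2 (0.17), which encodes B-Myb, were the highest, both on distal chromosome 3, and Lin9 (−0.38) and Tfdp1 (−0.09) the lowest. Mybl2 had 145 FPKM in KO and 129 FPKM in WT cells, without passing in the authors' deposited table.

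Other checkpoint and passenger proteins had a log2 ratio below 0 in 7 of 8 as deposited, with a median of −0.09. With FPKM sums set equal, which moves the median of all rows by −0.14, it was below 0 in 8 of 8. Birc5 (0.03), or survivin, the remaining core passenger subunit, was the 1 above 0 as deposited, with 86.4 FPKM in KO and 84.3 FPKM in WT cells. The next was Nek2 (−0.04), while Mad2l1bp (−0.19) and Zwilch (−0.18) were lowest. Other cyclin-CDK regulators had a median of −0.02 over 12 genes, from Ensa (−0.33) and Cdc25a (−0.18) to Pkmyt1 (0.15) and Bora (0.16). Other spindle and cytokinesis proteins had 0.07 over 21 (−0.086 with FPKM sums set equal), from Kif2a (−0.35) and Dlgap5 (−0.21) to Ckap2 (0.22) and Cit (0.26). Ckap2 was low in level, with 1.42 FPKM in KO and 1.08 FPKM in WT cells. For Kif2a the log2 fold in the authors' deposited table was −0.17, and for Kif14 it was 0.00 against a ratio of 0.12 from the listed FPKM.

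Structural lists stood near 0 as deposited, and between −0.14 and −0.21 with FPKM sums set equal. Other kinetochore and centromere proteins had a median log2 ratio of 0.00 over 26 genes, with Cenpn (0.23) and Dsn1 (0.18) highest and Cenpk (−0.17) and Cenph (−0.14) lowest. Cohesin and its regulators had 0.02 over 15, with Pds5b (0.36) and Sgo2 (0.21) highest and Stag1 (−0.17) and Cdca5 (−0.14) lowest. Pds5b was low in level, with 1.93 FPKM in KO and 1.29 FPKM in WT cells. Mau2, a cohesin loader subunit, had a log2 ratio of 0.06 from its listed FPKM while the authors' deposited table lists its log2 fold as 0.98, which would make it the highest, so its place is uncertain. The 4 other condensin subunits had −0.06, with Ncaph2 (0.02) and Ncapd2 (0.00) above Ncapd3 (−0.11) and Ncapg2 (−0.11). The 3 of these other mitotic genes on distal chromosome 3, Rbl1, Mybl2 and Dsn1, lay between 0.17 and 0.24, and the remaining 109 had a median of 0.02.

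Set beside mitosis, DNA replication genes lay on the other side of 0 as deposited, and both lists lay below 0 with FPKM sums set equal. Of 45 genes 35 had a log2 ratio below 0, with a median of −0.08, against 0.03 for the mitotic genes. None of the 45 was called in the authors' deposited table, against 1.05% of the 26459 tested rows. There, 2 had an unadjusted p under 0.05 (Prim1 and Gins3), against 7.45% of the 7019 rows at 10 to 100 FPKM, a range that does not hold all 45. With both groups scaled to the same FPKM sum the medians were −0.24 and −0.13, and relative to all rows −0.10 and 0.01. The difference between the lists was not tested. Orc4 (−0.31) and Prim1 (−0.25) were lowest, and Gins1 (0.24) and Pole2 (0.14) highest. Gins1 is on distal chromosome 3, and without the 2 replication genes there the median stayed at −0.08.

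**Figure D5:**
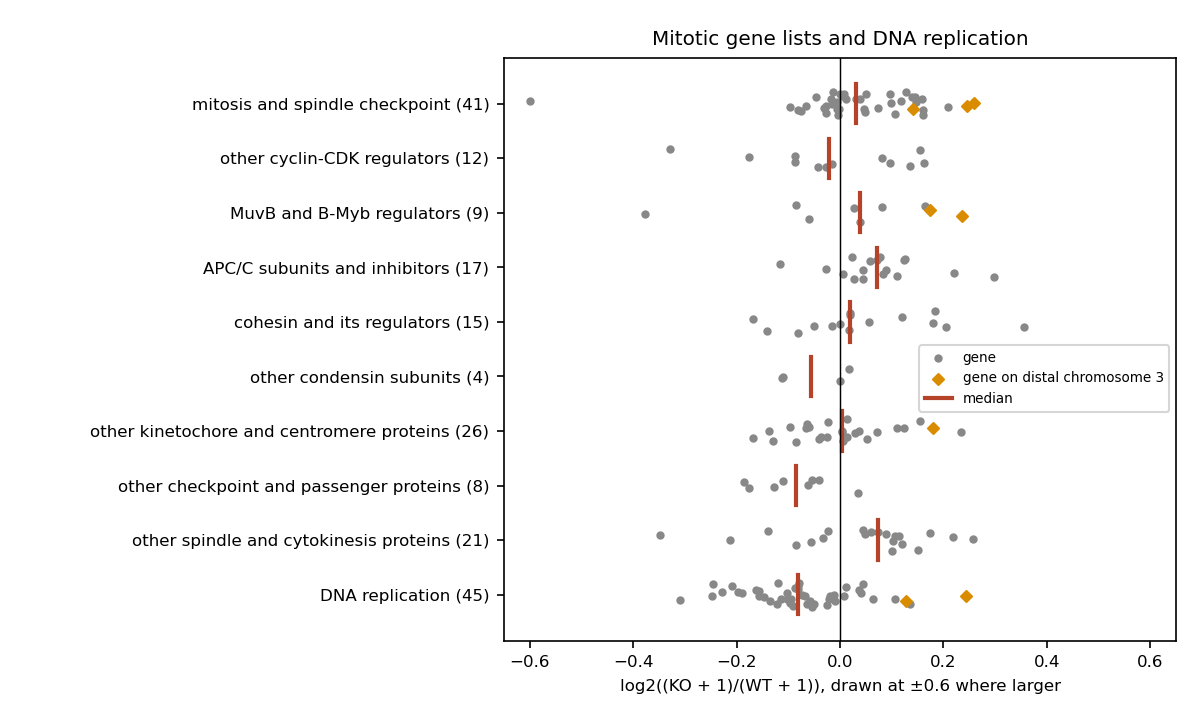
log2((KO + 1)/(WT + 1)) of single genes in the mitosis and spindle checkpoint list, 8 lists of other mitotic genes and the DNA replication list (number of genes in brackets), with red bars at the medians and diamonds for genes on distal chromosome 3. Nusap1 is drawn at the left edge; the medians of 0.03 for the first list and −0.08 for the last become −0.13 and −0.24 with both groups scaled to the same FPKM sum.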

How the data were processed

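Per the labels' protocols, total RNA of 3 miR-203 KO and 3 WT samples was made into stranded libraries by the dUTP method. TopHat (listed as 0.9), Cufflinks 2.2.1, Cuffdiff 2.2.1.3 and the build rn6 are named in the submitters' processing notes, while the annotation and settings are not given here. Per the file headers, the deposited table gives 1 FPKM per group, a log2 fold change of KO over WT, a test statistic (a score), p-values and q-values, all computed by the authors. Cuffdiff shares reads between overlapping transcripts.

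The design foresaw limma on values per sample; as these were not at hand, no test was run here, and calls are the authors' q under 0.05. The q-values equalled Benjamini-Hochberg values over the 26459 tested rows of 26751 when recomputed. Rows of equal locus length were told apart by the higher mean FPKM. The median over the mitotic genes was checked with simulated data that held a planted shift. Counts and the other lists were not checked in this way. All 41 measured members are named; of other lists, the called genes and 2 per side; any other gene was named after seeing its values. Members and lists were chosen with earlier results of these data known. RefSeq sequences are on GRCr8 and were matched by symbol. Python 3.11.15, pandas 2.3.3 and NumPy 2.4.6 were used. The alternatives that use the authors' fold, or leave out Nusap1, Ect2, Anln and Plk4, were chosen after seeing the data.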

Additional observations from a re-analysis of the deposited data

How the results depend on the processing

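The count of 0 called mitotic genes, and of 0 among the other mitotic genes, was unchanged at q under 0.10, at q under 0.01, with q recomputed over rows averaging at least 5 or 1 FPKM, and with the row of highest mean. Leaving out Nusap1, Ect2, Anln and Plk4 was run for the 41 genes only and also gave 0. With 0 called at q under 0.05, the stricter q and the left-out genes could only give 0. The lowest q of the 41, 0.551 in the authors' deposited table, likewise settled their count at q under 0.10. A median was taken as moved when it shifted by over 0.1. Scaling both groups to the same FPKM sum moved every median and the count: 7 of 41 genes were higher in KO cells, and the medians became −0.13 for the mitotic genes, −0.15 outside and 0.090 on distal chromosome 3, −0.14 for other mitotic genes and −0.24 for DNA replication. Relative to the median of all rows under that scaling, these were 0.01, −0.01, 0.23, 0.00 and −0.10 in the same order. Under the other pseudocounts, scalings, filters, row choices and the authors' fold, 23 to 32 genes were higher, and 22 of 37 without Nusap1, Ect2, Anln and Plk4; under those of these settings that gave it, the median of the mitotic genes lay between 0.01 and 0.04, outside distal chromosome 3 between 0.01 and 0.02, and on it between 0.24 and 0.26. No paired analysis was possible because only a single value was deposited for each group, and for that reason leaving out each replicate was not run either. Read depth is unknown, so no limit from counting can be given.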

Other observations

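Of the 41 measured genes, 15 had further tested rows beside the one used. Cdk1 had 3 more rows listed with the same locus, of which the highest had 4.52 FPKM in KO and 8.94 FPKM in WT cells, and Nuf2 had another with 2.42 FPKM in KO and 6.47 FPKM in WT cells, while a row of Ndc80 of 358 bp had 2.68 FPKM in KO and 1.48 FPKM in WT cells. None of these was called in the authors' deposited table, and which transcripts they hold is not given there.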
